A study of Mus musculus with 4 samples.

Results

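The genes examined here were those of fibroblast growth factor (FGF) signalling: the FGF genes themselves, the receptors Fgfr1 to Fgfr4 and Fgfrl1, the docking protein Frs2, and the genes that FGF signalling induces or that restrain it (Spry1 to Spry4, Spred1 to Spred3, Dusp6, Etv1, Etv4, Etv5 and Il17rd). They were picked by symbol from the tables of the series, which gave 40 genes of 25239. The symbol rule used no measured value, but this set of genes was chosen with earlier results of these data known. The series profiled mouse retina at E13.5 (E, embryonic day) by RNA sequencing, in 2 libraries of the control genotype and 2 labelled Isl1cKO, described by the submitters as null for Isl1, a LIM-homeodomain transcription factor of developing retinal neurons. Poly(A)-selected RNA was sequenced from strand-specific libraries of frozen dissected retina. The strain, the targeted allele, the Cre line and its driver, the control's own alleles and whether embryos were pooled are not given in the sources used here. Nothing in the labels says that the 2 libraries of a group came from separate embryos, so the p-values measure only the spread between these libraries, which may be technical in the controls. The 2 Isl1cKO libraries differed in Xist, given below, so they are not repeats of the same RNA.

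FGFs are secreted proteins that bind receptor tyrosine kinases together with heparan sulphate. The adaptor Frs2 couples the receptors to RAS and the ERK kinases, and ERK activity switches on the ETS factors Etv4 and Etv5 and a set of inhibitors, among them Dusp6 and the Sproutys, that damp the same pathway. In the embryonic eye FGF signalling favours neural retina over pigment epithelium and takes part in the onset of ganglion cell differentiation. Fgf15, the mouse counterpart of human FGF19, is known as an FGF of retinal progenitor cells at this age.

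Levels are given in TPM (transcripts, scaled to a fixed sum in each library). TPM are also scaled to transcript length, so that levels of different genes can be compared. Of the 40 genes, 26 reached 1 TPM in at least 2 libraries and were tested. All 26 in fact reached it in all 4 libraries, so none entered the test through 1 group only. The 14 that were not tested were Fgfr4 and 13 secreted FGFs. Differences are log2 fold changes of TPM + 1, Isl1cKO minus control, from limma, a linear model fitted across all 13984 tested genes. This scale understates the change of genes with low TPM.

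Before the pathway, the labels and libraries were checked. Isl1 itself had 242 and 201 TPM in control, 321 and 223 TPM in Isl1cKO, so the targeted gene was not lower in the latter, and every direction below rests on the labels. The tables hold no value per exon. Aligned sequence ranged from 12.6 to 14.3 gigabases per library. The second Isl1cKO library had the least sequence and the fewest genes at 1 TPM (13554, against 13816 to 13932), and its Xist level was 0.501 TPM where the other libraries had 209 to 287. In what follows, control and Isl1cKO mean the libraries so labelled.

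No FGF pathway gene passed the threshold of 0.05 on the adjusted p-value (limma with Benjamini-Hochberg adjustment), against 0.493% of all tested genes. The smallest adjusted p-value among the 26 was 0.158, for Fgf12. At an unadjusted p-value under 0.05 in limma there were 6 genes, all with lower values in Isl1cKO: the secreted ligands Fgf15, Fgf3 and Fgf18, the intracellular factor Fgf12, and the feedback inhibitors Spry2 and Spry4. Of all tested genes 12.1% met that criterion, 8.92% with lower values and 3.2% with higher values, so the 6 are 23.1% of the genes tested here. The tables hold no counts, so no count test was run, and limma was the only tool.

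**Figure D1:**
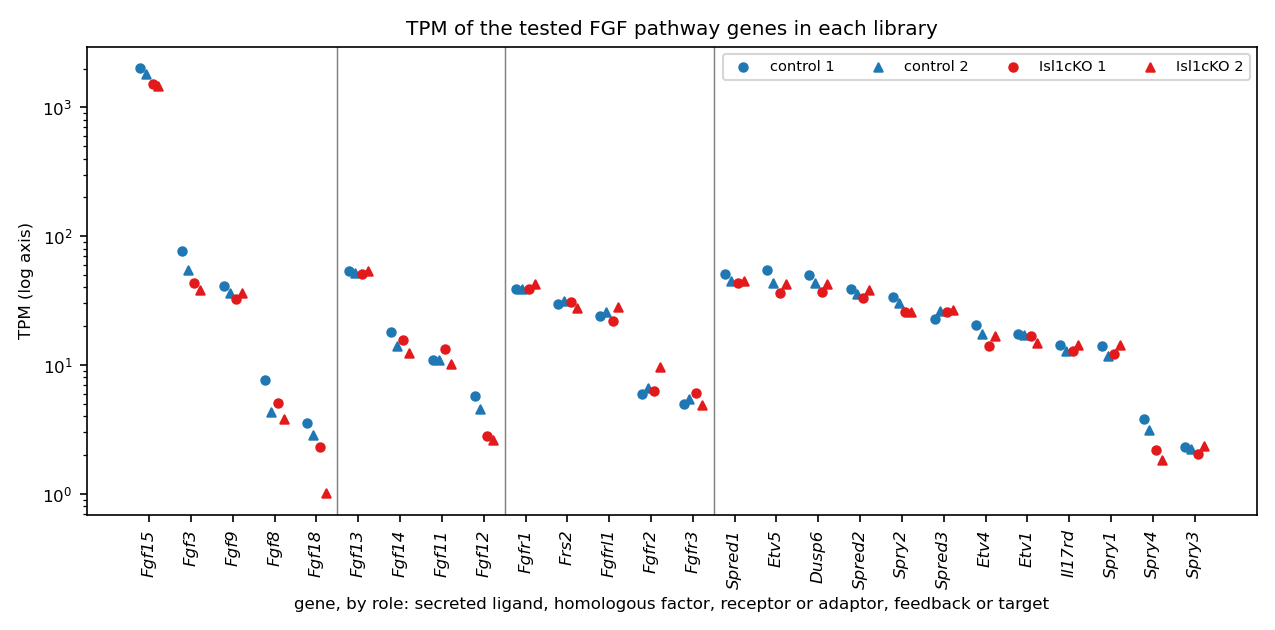
TPM (log axis) of the 26 tested genes in each library, with circles and triangles for replicates 1 and 2, blue for control and red for Isl1cKO, and grey lines between the 4 roles. Fgf15 lies far above every other gene in all 4 libraries, and all 4 points of each receptor gene lie close together except for Fgfr2, whose highest point is the second Isl1cKO library at 9.61 TPM.

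Among the secreted ligands, Fgf15 was by far the most abundant (chromosome 7, 144896532 to 144900951, plus strand, mm10). Its level was 2012 TPM in control replicate 1 and 1816 TPM in replicate 2, against 1521 and 1473 TPM in the same replicates of Isl1cKO. Both controls lay above both Isl1cKO libraries, and the gap between the groups was wider than the gap within either. The means were 1914 ± 139 and 1497 ± 33.7 TPM (SD, n = 2 each), a log2 fold change of -0.35 (SE 0.09). The limma interval at 95% ran from -0.60 to -0.11, with an unadjusted p-value of 0.0149 and an adjusted one of 0.285. Without control replicate 1 the unadjusted p-value was 0.110. Fgf15 ranked 41st and 58th among all genes by TPM in the controls, and 80th and 88th in Isl1cKO.

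Fgf15 made up 93.8% and 94.7% of the summed TPM of the 18 secreted FGF genes in the controls, and 94.6% and 94.8% in Isl1cKO. Its share of that sum thus differed between the groups by less than the spread between the controls. The sum itself was 2145 and 1918 TPM in control and 1607 and 1554 TPM in Isl1cKO. Without Fgf15, the remaining secreted FGFs summed to 133 and 102 TPM in control, and to 86.4 and 81.0 TPM in Isl1cKO.

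The next ligand by mean level was Fgf3 (chromosome 7, 144838612 to 144843348, plus strand), which in other vertebrates takes part in starting retinal neurogenesis. It stood at 77.2 and 54.8 TPM in control and at 43.3 and 38.3 TPM in Isl1cKO. The groups did not overlap, but the 2 controls differed from each other by more than the lower control differed from the higher Isl1cKO library. The log2 fold change was -0.66 (SE 0.19). The limma p-values were 0.0206 unadjusted and 0.312 adjusted. Leaving out control replicate 1 gave an unadjusted p-value of 0.0546, and leaving out Isl1cKO replicate 2 gave 0.0818 (limma). Fgf9 (chromosome 14, 58072686 to 58112720), a ligand that helps set the border between neural retina and pigment epithelium, had 40.8 and 36.24 TPM in control and 32.5 and 36.20 TPM in Isl1cKO. The lower control and the higher Isl1cKO library were all but equal, and the log2 fold change of -0.16 had a 95% interval from -0.45 to 0.12.

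Fgf8 and Fgf18 belong to the same FGF subfamily and were much lower in level. Fgf8 (chromosome 19, 45736798 to 45742884) had 7.70 and 4.32 TPM in control and 5.09 and 3.83 TPM in Isl1cKO, and the groups overlapped. Its log2 fold change of -0.33 became 0.028 without control replicate 1, the library with the highest value. Fgf18 (chromosome 11, 33116978 to 33147400) had 3.54 and 2.88 TPM in control and 2.30 and 1.01 TPM in Isl1cKO. Here the second Isl1cKO library lay well below the other. The log2 fold change of -0.71 (SE 0.26, unadjusted p-value 0.0488 and adjusted 0.409 in limma) was -0.35 without that library, and the unadjusted p-value was then 0.0684.

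The order of the 5 tested ligands by mean TPM was thus Fgf15, Fgf3, Fgf9, Fgf8 and Fgf18. Fgf8 and Fgf18 are neighbours in that order whose values did not overlap across the 4 libraries, while the controls' lowest Fgf3 value lay above their highest Fgf9 value. In Isl1cKO the gap between Fgf3 (38.3 TPM at the lowest) and Fgf9 (36.20 TPM at the highest) was narrow.

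The other 13 secreted FGFs stayed near or below 1 TPM. Fgf17, the third member of the Fgf8 subfamily, had 1.38 and 0.652 TPM in control and 0.600 and 0.317 TPM in Isl1cKO. Fgf7 had 0.463 and 1.01 TPM in control and 0.556 and 0.184 TPM in Isl1cKO. Fgf10, like Fgf7 a typical product of mesenchyme, had 0.308 and 0.532 TPM in control and 0.171 and 0.175 TPM in Isl1cKO. These 3 genes reached 1 TPM in at most 1 library and were given no test at this filter. Fgf2 ranged from 0.379 to 0.595 TPM and Fgf22 from 0.449 to 0.908 TPM, each with overlapping groups. Fgf1, Fgf4 and Fgf23 stayed at or under 0.275 TPM. Fgf5 and Fgf16 were listed above 0 in only 1 library each, and Fgf6, Fgf20 and Fgf21 were listed at 0 in all 4.

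The FGF homologous factors Fgf11 to Fgf14 share the FGF fold but stay inside the cell, where they bind voltage-gated sodium channels. The most abundant, Fgf13 (chromosome X, 59062146 to 59585572), had 53.4 and 51.6 TPM in control and 50.8 and 54.0 TPM in Isl1cKO. The 2 groups lay on the same level, with a 95% interval of the log2 fold change from -0.22 to 0.22 in limma. Fgf14 (18.2 and 14.0 against 15.7 and 12.4 TPM) and Fgf11 (10.9 and 10.9 against 13.2 and 10.1 TPM) overlapped between groups as well.

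Fgf12 (chromosome 16, 28157783 to 28753243, minus strand) differed from the other homologous factors in that its groups were apart. It had 5.75 and 4.52 TPM in control and 2.78 and 2.61 TPM in Isl1cKO, a ratio of the means of 0.525. The log2 fold change was -0.72 (SE 0.13). The limma p-values were 0.00314 unadjusted and 0.158 adjusted. It ranged from -0.87 to -0.58 when each library was left out in turn. Whether the change of Fgf12 differed from that of Fgf13 was not tested. Most of the ganglion cell marker list moved in the same direction. Of its 10 genes, 8 were lower at an unadjusted p-value under 0.05 in limma, beside 8.92% of all tested genes. None of the 8 was at 0 in any library, and none of the 10 passed the adjusted threshold. Pou4f2 and Isl1 went the other way, with log2 fold changes of 0.02 and 0.28. The list's summed TPM was 3287 to 3823 in control and 1481 to 2167 in Isl1cKO. Its part in the Fgf12 values was not tested, and in whole retina fewer cells of a type and less RNA per cell cannot be told apart.

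For the receptors and the adaptor the 2 groups overlapped in every tested gene. Of all tested genes, 30.0% had groups that were apart with Isl1cKO lower, and 14.9% with Isl1cKO higher. Fgfr1 (chromosome 8, 25518759 to 25575718), the main receptor by level, had 39.2 and 38.9 TPM in control and 38.8 and 42.3 TPM in Isl1cKO. Its log2 fold change of 0.05 had a 95% interval from -0.18 to 0.28 in limma, and it made up 73.7% to 77.0% of the TPM of Fgfr1 to Fgfr4 in each library. Fgfr3 had 4.99 and 5.44 TPM in control and 6.06 and 4.93 TPM in Isl1cKO. Fgfr2 had 5.90 and 6.65 TPM in control and 6.33 and 9.61 TPM in Isl1cKO. Its log2 fold change of 0.28 thus rested on the second Isl1cKO library, and it was 0.0115 without it. Fgfr4 stayed under 1 TPM, at 0.827 and 0.726 TPM in control and 0.490 and 0.532 TPM in Isl1cKO. The tables give 1 value per gene, so the IIIb and IIIc receptor isoforms, which bind different ligands, are not separated.

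Fgfrl1, a receptor that lacks the kinase domain, had 24.0 and 25.6 TPM in control and 21.9 and 28.0 TPM in Isl1cKO, so that both controls lay between the 2 Isl1cKO libraries. Frs2 had 29.5 and 31.3 TPM in control and 30.8 and 27.9 TPM in Isl1cKO. Over the 5 tested genes of this group the median log2 fold change was 0.05, beside -0.05 over all tested genes, but it became 0.0067 with the first control library left out and 0.112 with the first Isl1cKO library left out. None reached an unadjusted p-value under 0.05 in limma.

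**Figure D2:**
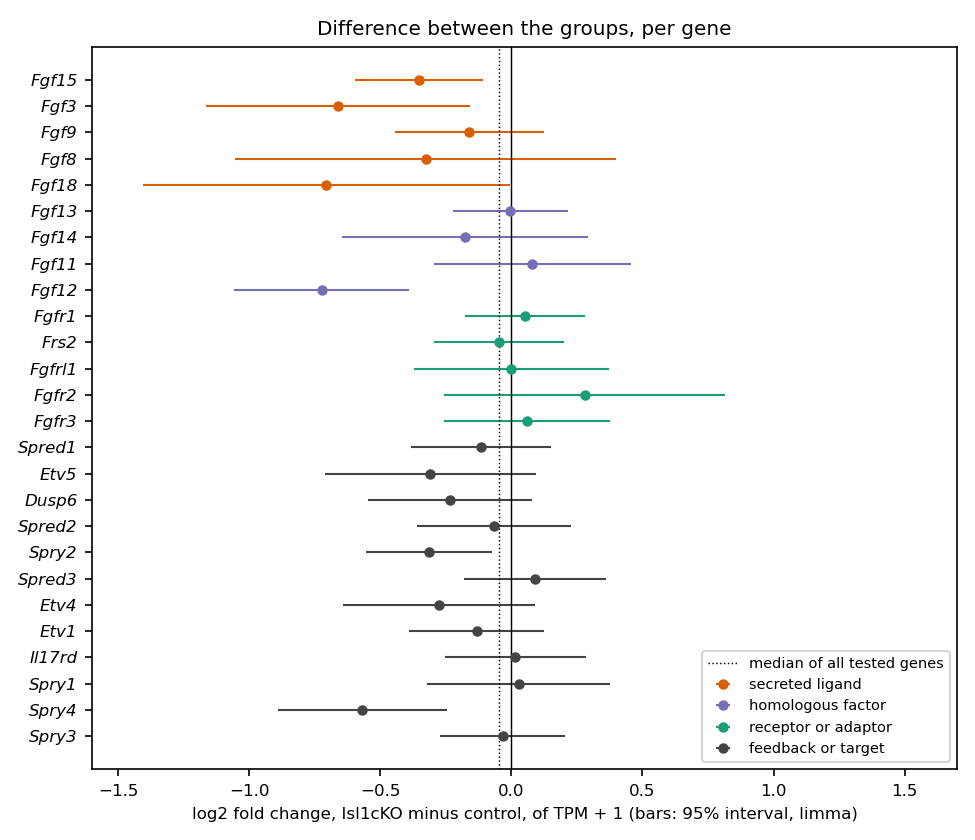
Log2 fold change of TPM + 1, Isl1cKO minus control, for the 26 tested genes, with bars for the 95% interval from limma, colours for the 4 roles and a dotted line at the median of all tested genes (-0.05). The intervals of Fgf15, Fgf3, Fgf18, Fgf12, Spry2 and Spry4 lie below 0, and those of the receptors and Frs2 include it.

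Among the 12 feedback inhibitors and targets, the groups were apart in 6 (50%), all with Isl1cKO lower: Spry2, Spry4, Dusp6, Etv1, Etv4 and Etv5. Of the 4 Sproutys, the groups were thus apart for 2 and overlapped for Spry1 and Spry3. Of all tested genes, the groups were apart with Isl1cKO lower in 30.0% and with Isl1cKO higher in 14.9%. The contrast among the Sproutys was not itself tested. Sproutys block the path from receptor to ERK and are themselves induced by it. Spry2 (chromosome 14, 105891947 to 105896819, minus strand) had 33.8 and 30.4 TPM in control and 25.7 and 25.6 TPM in Isl1cKO. The 2 Isl1cKO libraries were almost the same, and both controls lay above them. The log2 fold change was -0.31 (SE 0.09). The limma p-values were 0.0213 unadjusted and 0.317 adjusted. With the first control library left out the unadjusted value became 0.148, and with the second Isl1cKO library left out 0.0517. Spry4 (chromosome 18, 38586247 to 38601347, minus strand) had 3.80 and 3.14 TPM in control and 2.20 and 1.82 TPM in Isl1cKO. Its groups did not overlap either, and the log2 fold change was -0.57 (SE 0.12, unadjusted p-value 0.00717 and adjusted 0.218 in limma). Spry1 (14.0 and 11.8 against 12.1 and 14.3 TPM) and Spry3 (2.30 and 2.22 against 2.04 and 2.35 TPM) overlapped between groups. The authors' table places Spry3 on an unlocalized scaffold of chromosome X.

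The ETS factors Etv4 and Etv5 and the ERK phosphatase Dusp6 are widely used read-outs of FGF signalling. Etv5 had 54.7 and 43.4 TPM in control and 36.2 and 42.2 TPM in Isl1cKO. Dusp6 had 49.99 and 43.6 TPM in control and 37.0 and 42.3 TPM in Isl1cKO. Etv4 had 20.4 and 17.4 TPM in control and 14.0 and 16.9 TPM in Isl1cKO. In these 3 genes the same order held: control replicate 1 was highest, Isl1cKO replicate 1 was lowest, and control replicate 2 and Isl1cKO replicate 2 lay within a few percent of each other. Their log2 fold changes were -0.31, -0.23 and -0.28, with unadjusted p-values of 0.102, 0.110 and 0.107 in limma. Etv1, a further ETS factor of the same subfamily, had 17.5 and 17.1 TPM in control and 16.7 and 14.7 TPM in Isl1cKO, for a log2 fold change of -0.13.

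The Spreds inhibit RAS signalling and are relatives of the Sproutys. Spred1 was at 51.2 and 44.8 TPM in control and 43.3 and 44.9 TPM in Isl1cKO. Spred2 ranged from 33.1 to 39.0 TPM and Spred3 from 22.8 to 26.6 TPM over the 4 libraries. Il17rd, a membrane antagonist of FGF receptors, had 14.2 and 12.8 TPM in control and 12.9 and 14.4 TPM in Isl1cKO. The groups overlapped for all 3 Spreds and for Il17rd, with log2 fold changes from -0.12 to 0.09.

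By role, all 5 tested secreted ligands had a negative log2 fold change (median -0.35). So had 3 of 4 homologous factors, 2 of 5 receptor and adaptor genes and 9 of 12 feedback and target genes. The median of the feedback and target genes, -0.12, was -0.068 without control replicate 1. It was -0.052 after quantile normalization, which moved the median of all tested genes from -0.05 to 0.02. Of all tested genes 63.8% had a negative log2 fold change, so a negative sign alone was common. The groups did not overlap, with Isl1cKO lower, in 11 of the 26 genes (42.3%), beside 30.0% of all tested genes, and in the opposite direction in 0 of 26, beside 14.9%. With 2 libraries a group, an exact two-sided permutation test of a single value cannot go below 0.333.

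The first control library held the highest of the 4 values in 15 of the 26 genes (57.7%), beside 35.9% of all tested genes, and in all 5 tested ligands. Without it, 2 genes remained lower at an unadjusted p-value under 0.05 in limma (Fgf12 and Spry4), beside 5.46% of all tested genes in either direction. The log2 fold changes without it were -0.28 for Fgf15, -0.42 for Fgf3, -0.59 for Fgf18, -0.58 for Fgf12, -0.24 for Spry2 and -0.46 for Spry4, each smaller in size than with all libraries. The median over the 26 genes then moved from -0.12 to -0.03, and that over the 9 tested Fgf genes from -0.33 to -0.08. Without the second Isl1cKO library, 4 genes were lower at that p-value (Fgf12, Fgf15, Spry4 and Etv4) and 1 was higher (Fgf11), beside 10.5% of all tested genes in either direction. In these comparisons 1 library stands for its group and is assumed to vary like the other group.

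**Figure D3:**
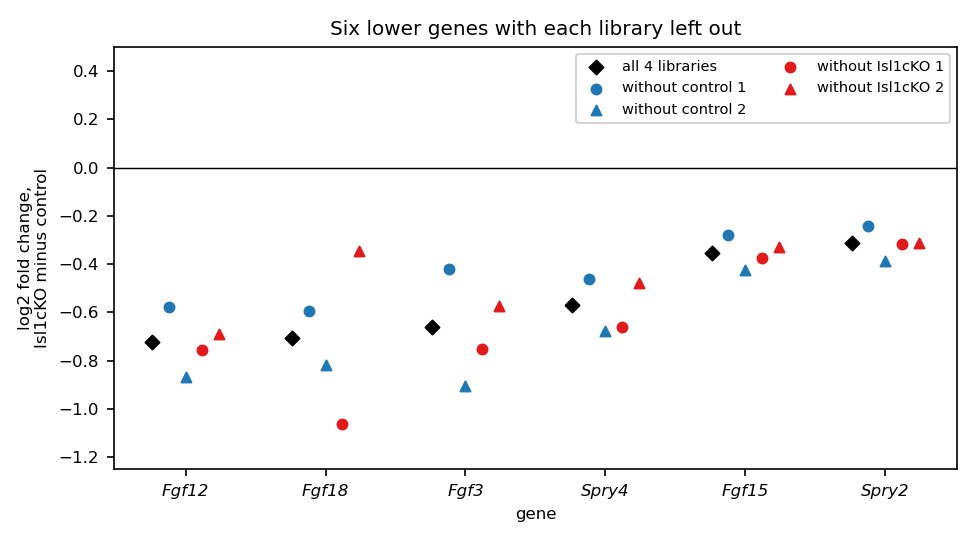
Log2 fold change, Isl1cKO minus control, of the 6 genes at an unadjusted p-value under 0.05, with all 4 libraries (black diamonds) and with each library left out (blue, a control; red, an Isl1cKO library). All 30 points lie below 0; the widest spread is that of Fgf18, from -1.06 to -0.35.

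Several of these genes lie close together in the genome. Fgf3, Fgf4 and Fgf15 stand in the same orientation on chromosome 7, with 18.0 kb between Fgf3 and Fgf4 and 31.3 kb between Fgf4 and Fgf15. Beyond Fgf15 follow LTO1, a ribosome biogenesis factor, and Ccnd1, which encodes cyclin D1. The neighbourhood was looked at after the values of Fgf3 and Fgf15 had been seen. Of 14 genes overlapping a window of 500 kb on either side of Fgf15, 10 were tested, and 5 had lower values at an unadjusted p-value under 0.05 in limma: Ano1, Fgf3, Fgf15, LTO1 and Ccnd1. These 5 are the tested genes from Ano1 to Ccnd1 without a gap, and none passed the adjusted threshold. They include Fgf3 and Fgf15, which prompted the look. Of the 8 other tested genes, 3 had lower values at that p-value, beside 8.92% of all tested genes. The count of 5 became 2 without control replicate 1 (Ano1 and Ccnd1) and 3 without Isl1cKO replicate 2 (Ano1, Fgf15 and Ccnd1).

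Within that stretch the sizes differed. Ccnd1 had 1944 and 1498 TPM in control and 848 and 961 TPM in Isl1cKO, for a log2 fold change of -0.92 (adjusted p-value in limma 0.158). Ano1, a calcium-activated chloride channel gene, had 75.7 and 59.0 TPM in control and 38.9 and 33.5 TPM in Isl1cKO, for a log2 fold change of -0.87 (adjusted p-value in limma 0.171). LTO1 had 60.7 and 63.1 TPM in control and 53.9 and 49.5 TPM in Isl1cKO. Fgf4, which lies between Fgf3 and Fgf15, stayed at or under 0.184 TPM in every library. Outside the stretch, Fadd, next to Ano1, had a log2 fold change of -0.01 and Tpcn2, beyond Ccnd1, one of -0.10. GENCODE M21 also places the antisense genes Gm26793 and Gm39119 over Fgf15. Whether strand was used when reads were assigned is not given in the sources used here, so reads of these genes cannot be told apart from those of Fgf15. The same holds for LTO1 on the plus strand and Ccnd1 on the minus strand, which overlap from position 144929931 to 144930748.

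**Figure D4:**
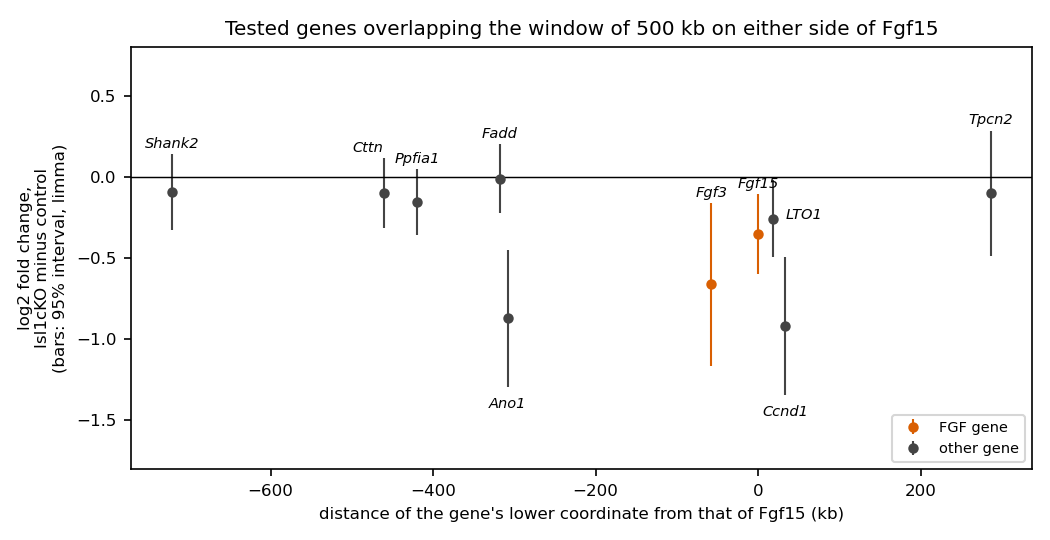
Log2 fold change, Isl1cKO minus control, with the 95% interval from limma, of the 10 tested genes in the window of 500 kb on either side of Fgf15, against distance along chromosome 7 in kb, with the FGF genes in orange. The intervals of Ano1, Fgf3, Fgf15, LTO1 and Ccnd1 lie below 0, while those of Fadd and Tpcn2 on either side include it.

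Promoter sequence was examined for the letters bound by the ETS factors at the end of the pathway and by the GLI factors of the hedgehog pathway. RefSeq sequence of GRCm38.p6 was used for the 250 bases before a gene's start, which held 39 starts of 30 of the 40 genes. No such sequence was at hand for Fgf15, Spry4, Fgf8, Fgf1, Fgf16, Fgf17, Fgf20, Fgfr1, Etv4 and Spry3, so these were not searched. The ETS letters CCGGAAGT, on either strand, were in 2 of these (Fgfrl1 and Frs2), beside 2.88% of 32851 starts of all genes. The GLI letters TGGGTGGTC, on either strand, were in 0 of 39, beside 0.225% of all. A match describes the letters and shows no binding. 3 promoters are printed, 5′ to 3′ on the gene's own strand, with the ETS letters in capitals: 2 genes at an unadjusted p-value under 0.05 (Fgf3 and Spry2), in which neither set of letters was found, and Frs2, whose groups overlapped, in which the ETS letters lie 62 bases before the start. The sequence for Fgf3 is chr7:144838362-144838611 (plus strand), for Spry2 chr14:105896820-105897069 (minus strand) and for Frs2 chr10:117148475-117148724 (minus strand). G and C made up 55.2% of the Fgf3 window, 62.4% of that of Spry2 and 71.6% of that of Frs2.
Fgf3: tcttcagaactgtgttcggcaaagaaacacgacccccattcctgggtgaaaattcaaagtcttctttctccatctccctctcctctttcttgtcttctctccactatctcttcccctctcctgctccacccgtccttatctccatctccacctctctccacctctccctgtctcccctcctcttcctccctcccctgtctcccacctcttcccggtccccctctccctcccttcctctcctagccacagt
Spry2: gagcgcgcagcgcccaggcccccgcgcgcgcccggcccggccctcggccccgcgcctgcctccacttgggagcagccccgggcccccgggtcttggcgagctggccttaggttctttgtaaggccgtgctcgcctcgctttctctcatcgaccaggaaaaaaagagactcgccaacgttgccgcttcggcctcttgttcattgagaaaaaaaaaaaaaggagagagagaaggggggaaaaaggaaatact
Frs2: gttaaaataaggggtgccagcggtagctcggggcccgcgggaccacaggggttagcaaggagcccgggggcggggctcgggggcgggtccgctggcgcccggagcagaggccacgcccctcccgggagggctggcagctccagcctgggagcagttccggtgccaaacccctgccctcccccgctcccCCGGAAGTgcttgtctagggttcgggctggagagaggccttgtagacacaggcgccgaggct

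The rest of the pathway was described with lists of genes that are not among the 40. At an unadjusted p-value under 0.05 in limma, 8.92% of all tested genes were lower and 3.2% higher. These shares stand beside every list count below that uses all 4 libraries. In the ERK cascade 25 of 25 genes were tested and 1, Gab2, a scaffold protein below the receptors, was lower at an unadjusted p-value under 0.05. Gab2 had 15.3 and 12.8 TPM in control and 7.91 and 8.08 TPM in Isl1cKO (log2 fold change -0.74, adjusted p-value 0.126 in limma). The next smallest p-value was that of Shc1, an adaptor, at 56.5 and 55.1 TPM in control and 48.7 and 49.0 TPM in Isl1cKO. The median of the list was -0.07.

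Of 15 tested ERK-responsive genes, 1 was lower and 2 were higher at an unadjusted p-value under 0.05 in limma. The 2 with the smallest p-values were Phlda1, at 42.9 and 50.6 TPM in control and 59.9 and 61.8 TPM in Isl1cKO, and Myc, at 9.80 and 13.1 TPM in control and 16.1 and 22.9 TPM in Isl1cKO. The gene that was lower, Ier2, an immediate-early gene, had 50.7 and 49.4 TPM in control and 41.6 and 43.4 TPM in Isl1cKO. Without control replicate 1 none of the 15 met that criterion, and without Isl1cKO replicate 2 there were 3 lower and 0 higher. The median of this list was -0.05, with 9 of 15 negative.

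Heparan sulphate enzymes and FGF co-receptors had a median of -0.0028 over 28 tested genes, 1 of which was lower and 1 higher at that p-value. The syndecan Sdc3 had 53.3 and 39.4 TPM in control and 30.2 and 29.6 TPM in Isl1cKO. Flrt2, a membrane protein of a family that binds FGF receptors, had 29.0 and 35.2 TPM in control and 42.0 and 51.4 TPM in Isl1cKO. Without Isl1cKO replicate 2 neither gene met that criterion (0.0590 for Sdc3 and 0.0704 for Flrt2). In none of these 3 lists did a gene pass the adjusted threshold.

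Of 7 tested genes of the optic stalk and ciliary margin, eye regions shaped by FGF signals, 1 was lower at an unadjusted p-value under 0.05 in limma. This was Ntn1, the guidance molecule netrin 1, at 10.6 and 8.85 TPM in control and 4.58 and 4.16 TPM in Isl1cKO (adjusted p-value 0.0757). The gene with the next smallest p-value, Vax2, a factor of the ventral retina, had 88.7 and 95.5 TPM in control and 110 and 166 TPM in Isl1cKO. The list's median was 0.21, opposite in sign to Ntn1.

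Hedgehog read-outs were set beside Fgf15, since hedgehog signals act on the same progenitor cells. All 5 were lower at an unadjusted p-value under 0.05 in limma, and Gli1 alone passed the adjusted threshold (0.00744), with 96.6 and 65.4 TPM in control and 1.49 and 1.20 TPM in Isl1cKO. Its adjusted p-value in limma was 0.0721 without Isl1cKO replicate 2. Ptch1, the hedgehog receptor, had 34.0 and 26.5 TPM in control and 15.0 and 13.8 TPM in Isl1cKO. The log2 fold changes of the 5 read-outs ran from -5.11 to -1.01, all larger in size than the -0.72 that was the largest among the 26 FGF pathway genes. Their part in the FGF values was not tested.

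Markers of the cells that make or surround the retina were read in the same way. The retinal progenitor list, whose cells are known for Fgf15, summed to 2678 and 2724 TPM in control and 2674 and 2951 TPM in Isl1cKO, and none of its 9 genes reached an unadjusted p-value under 0.05. The lens list summed to 222 to 274 TPM in control and 9.65 to 12.02 TPM in Isl1cKO, with 8 of 10 genes lower at that p-value, 6 of them past the adjusted threshold in limma (4 without Isl1cKO replicate 2), and Lim2 at 0 in both Isl1cKO libraries. Periocular mesenchyme markers summed to 19.2 to 25.8 TPM in control and 14.2 to 18.1 TPM in Isl1cKO, with 1 of 4 tested genes lower at that p-value. The endothelial list summed to 63.9 to 83.6 TPM in control and 59.3 to 62.7 TPM in Isl1cKO, and was mostly Kdr (69.0 and 57.0 against 56.7 and 55.5 TPM). Cdh5 (2.55 and 0.357 against 0.211 and 0 TPM) and Emcn (2.16 and 0.383 against 0.175 and 0 TPM) were highest in control replicate 1. Both Isl1cKO libraries lay below both controls in these genes, which were not tested. Pecam1, also not tested, overlapped between groups (2.45 and 0.592 against 0.681 and 0.296 TPM). Neither of the 2 endothelial genes tested, Kdr and Cldn5, reached that p-value. The pigment epithelium list summed to 34.7 to 40.6 TPM in control and 25.1 to 34.2 TPM in Isl1cKO, with Rpe65 at 0 in all 4 libraries. The red blood cell list summed to 2784 and 4016 TPM in control and 1335 and 183 TPM in Isl1cKO, with 4 of 7 tested genes lower at that p-value and Hbb-bs at 0 in the second Isl1cKO library. The microglia list summed to 45.6 and 44.9 TPM in control and 57.2 and 67.5 TPM in Isl1cKO, with 3 of 6 tested genes higher at that p-value. Neurogenic progenitor markers summed to 2152 and 2455 TPM in control and 2323 and 2661 TPM in Isl1cKO, with 1 of 6, Dll1, higher. None of the genes in these last 3 lists passed the adjusted threshold. The part of these cells and tissues in the FGF values was not tested.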

How the data were processed

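Each of the 4 libraries has its own table, so replicates were not pooled. Per the submitters' processing notes, the tools included Trimmomatic, FastQC, HISAT2, SAMtools and StringTie, and the build was mm10. Versions, settings and the annotation are not given in the sources used here. Per the file headers, the authors deposited for each gene a mean coverage per base (a signal not scaled to depth), FPKM and TPM. TPM summed to 1000000 in each library. Coverage divided by FPKM gave the aligned sequence per library. The depth in reads is unknown, so no counting interval was computed.

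TPM were summed over repeated rows of a gene ID. None of the 40 genes had repeated rows. Genes with at least 1 TPM in at least 2 libraries were fitted as log2(TPM + 1) in limma (version 3.58.1, R 4.3.3; functions lmFit and eBayes). The model had a single term, genotype, and a constant variance prior. Benjamini-Hochberg adjustment covered all tested genes. Pathway and marker lists were described by counts and medians, with no test of a list. The genes, lists and tests were chosen with earlier results of these data known. Genes given in full were those with the largest fold changes, the smallest p-values or the highest level in their role. From each pathway list, the genes past the adjusted threshold were named or, with none, the 2 with the smallest p-values. Alternatives were a pseudocount of 0.1, a filter of 5 TPM or none, FPKM, median-ratio and quantile scaling, a mean-variance trend, a replicate block and leaving out each library.

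Of the 40 gene positions, 39 overlapped the gene of that name in GENCODE M21, which is on the same assembly. In data simulated for this comparison, 200 of 13984 genes were changed, 50 at each size, with normal noise at each gene's own SD within groups. There the fit called 4% of genes changed by 0.5 on the log2 scale, 48% of those changed by 1 and 84% of those changed by 2. That SD came from 2 libraries a group, and other settings, such as more changed genes, were not tried.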

Additional observations from a re-analysis of the deposited data

How the results depend on the processing

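All values are for Isl1cKO against control. No FGF pathway gene passed the adjusted threshold under any of 8 alternatives or when a library was left out; the smallest adjusted p-value was 0.06, for Fgf12 with the replicate block. Of the 26 genes, 13 kept their direction throughout. The 6 genes at an unadjusted p-value under 0.05 (6 lower) became 3 (3 lower) with a filter of 5 TPM, where Fgf12, Fgf18 and Spry4 were not tested (beside 1373 of all 11417 genes tested there), and ranged from 2 to 7 (2 to 7 lower) with each library left out, lowest without control replicate 1, beside 5.46% to 23.4% of all tested genes. Fgf18 was above 0.05 at a pseudocount of 0.1 (unadjusted p-value 0.0737 in limma), with no filter (0.0695, where Fgfr4 entered as lower) and after quantile normalization (0.0548). The median over the tested genes, -0.12, was -0.052 after quantile normalization and ranged from -0.18 to -0.032 with each library left out. The median over the Fgf genes ranged from -0.43 to -0.077. The count over all genes, 69, was 44 at a pseudocount of 0.1, 15 with no filter, 127 with FPKM, 110 with a mean-variance trend and 265 with the replicate block, and ranged from 10 to 37 with each library left out. The cause of these changes was not tested, except where fewer genes were tested. With FPKM, median-ratio scaling and quantile normalization in turn, Fgf13 (main value -0.0035) was at 0.045, 0.048 and 0.047, Fgfrl1 (-0.00017) at 0.046, 0.050 and 0.071, and Frs2 (-0.048) at 0.00037, 0.0021 and 0.021. Spry3 (-0.034) was at 0.0026 with median-ratio scaling and 0.10 after quantile normalization, and Spred2 (-0.067) at 0.00014 after the latter. With each library left out, the ranges that crossed 0 were -0.099 to 0.26 for Fgf11, -0.047 to 0.040 for Fgf13, -0.35 to 0.0011 for Fgf14, -0.68 to 0.028 for Fgf8, -0.0087 to 0.11 for Fgfr1, -0.067 to 0.19 for Fgfr3, -0.17 to 0.17 for Fgfrl1 and -0.12 to 0.021 for Frs2. They were -0.056 to 0.085 for Il17rd, -0.17 to 0.032 for Spred2, -0.0080 to 0.19 for Spred3, -0.088 to 0.14 for Spry1 and -0.10 to 0.036 for Spry3. The median of all genes moved as well, from -0.048 to 0.0015 with FPKM, 0.0012 with median-ratio scaling and 0.020 after quantile normalization. No scaling moved it by more than 0.1.

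The replicate numbers were checked for pairing: deviations from the group means correlated at 0.126 between the first libraries of the groups. There are only 2 pairs, and the labels name no shared litter, batch or day, so the libraries were taken to share a number and nothing more. With the replicate block 6 FGF pathway genes, all lower, again had an unadjusted p-value under 0.05, beside 14.6% of all tested genes, and 0 passed the adjusted threshold, beside 1.9%.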
